A study of Mus musculus with 10 samples.

Results

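Bile acid handling genes were followed in the jejunum of mice in which Pcyt1a, the gene for the rate-limiting enzyme of phosphatidylcholine synthesis, was targeted in the intestinal epithelium. The set held 9 genes chosen by their role, with earlier results of these data known. They were Slc10a2, Fabp6, Slc51a, Slc51b, Abcc2 and Abcc3 for uptake, binding and export. Nr1h4 stood for the bile acid receptor FXR, and Fgf15 and Nr0b2 for its signalling. Of the 9 genes, 8 were measured among 22180 genes tested. The probe set annotated to Slc51b carries 2 gene symbols, so Slc51b has no value of its own here.

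RNA was measured on 10 whole-transcript arrays, 5 from knockout and 5 from control mice. Both groups carried Pcyt1aLoxP/LoxP alleles, and the knockout group also carried VilCreERT2, a tamoxifen-activated Cre recombinase under the villin promoter, which acts in the intestinal epithelium. All mice were females 10 to 12 weeks old and were given tamoxifen for 5 days, the controls included. All had high-fat food for 3 days, an overnight fast and then 2 hours of high-fat food before 3 cm of the middle of the small intestine was taken. Only the knockout group carried Cre, so active Cre and loss of Pcyt1a cannot be told apart. The tissue is a piece of gut wall, in which villin is not active in every cell. In such bulk tissue, fewer cells of a type and less RNA per cell cannot be told apart.

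Bile acids leave the gut mainly in the ileum, the last part of the small intestine. There the sodium-dependent transporter encoded by Slc10a2 takes them up from the lumen, the binding protein encoded by Fabp6 carries them through the enterocyte, and the transporter formed by the Slc51a and Slc51b products passes them to the blood. Bile acids also bind FXR, a nuclear receptor that pairs with RXR and switches on Fabp6, Slc51a, Slc51b, Nr0b2 and Fgf15. FGF15 travels to the liver and lowers bile acid synthesis. In the jejunum the ileal genes are usually low, and the transcription factor GATA4 is known to hold them so.

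The stretches just before the transcription starts of Fabp6 and Slc10a2 are shown because these genes had the widest differences among the 8. They come from RefSeq (GRCm38.p6), which had an entry for 7 of the 9 genes, and each holds 250 bases ending at the base before the start, read 5′ to 3′ on the gene's strand. Fabp6 lies at chr11:43601563-43601812 and Slc10a2 at chr8:5105288-5105537, both on the minus strand. Capitals mark matches to motifs.
Fabp6: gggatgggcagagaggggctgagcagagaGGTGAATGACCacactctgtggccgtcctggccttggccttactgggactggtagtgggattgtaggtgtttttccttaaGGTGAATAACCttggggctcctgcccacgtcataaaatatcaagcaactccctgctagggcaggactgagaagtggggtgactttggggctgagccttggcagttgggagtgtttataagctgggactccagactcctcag
Slc10a2: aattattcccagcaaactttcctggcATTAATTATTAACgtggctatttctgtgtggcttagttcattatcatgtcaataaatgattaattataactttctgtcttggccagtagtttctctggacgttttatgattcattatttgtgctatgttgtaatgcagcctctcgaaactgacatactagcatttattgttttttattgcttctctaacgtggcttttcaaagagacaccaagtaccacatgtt
Searched on both strands were the FXR inverted repeat GGTCANTGACC with up to 2 mismatches, the HNF1 palindrome GTTAATNATTAAC with up to 2 mismatches, and the GATA motif AGATAA with 0 mismatches. The Fabp6 stretch held 2 matches to the FXR repeat, at bases -221 to -211 (1 mismatch) and -141 to -131 (2 mismatches) counted from the start. The Slc10a2 stretch held 1 match to the HNF1 palindrome, at -224 to -212 (1 mismatch). Of 32851 stretches of this length, 8.92% held the FXR repeat, 1.24% the HNF1 palindrome and 9.99% the GATA motif. Among the other 5 genes with an entry, Slc51b held the FXR repeat, Nr1h4 and Abcc2 the HNF1 palindrome and Nr1h4 the GATA motif, while Slc51a and Nr0b2 held none of the 3. A match is a run of letters in this window and was not tested as a binding site.

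Array medians ran from 45.8 to 48.1 in linear intensity, and correlations between arrays across genes from 0.972 to 0.993. Pcyt1a was between 7.24 and 7.66 on the log2 scale in knockout arrays and between 8.95 and 9.51 in control arrays, and knockout 1, at 7.58, lay within its group. Whether its probes fall inside the stretch removed by Cre is not given in the sources used here, so this check of the labels is limited. Of the markers of enterocytes, all 9 were measured and none was called, where 0.343% of all genes were. Their summed linear intensity was 65343 to 74022 in knockout and 62808 to 73068 in control. Hepatocyte markers, of interest because Nr1h4, Nr0b2 and Abcc2 are also liver genes, summed to 344 to 373 in knockout and 376 to 411 in control over 9 markers. Of these 9, 8 lay below the median gene, among them Alb, Apoh and Fgb.

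None of the 8 measured genes passed the test over all genes (0 of 8, limma adjusted p under 0.05), where 0.343% of all genes did. Without adjustment, 4 of the 8 had p under 0.05, all with higher values in knockout, against 12.1% of all genes in either direction and 5.82% with higher values. Values were higher in knockout for 7 genes and lower for 1, where 11077 of all 22180 genes were higher. The median difference was 0.43 on the log2 scale over the 8 genes and -0.000354 over all genes. The 4 genes with p under 0.05 were Fabp6, Slc10a2, Slc51a and Fgf15. Knockouts 2 to 5 lay above every control for Fabp6, Slc51a and Fgf15, and knockouts 2, 4 and 5 for Slc10a2. With knockout 1 set aside, all knockouts lay above all controls in 2.87% of all genes.

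Fabp6, the ileal bile acid binding protein gene, had log2 intensities of 4.31, 11.20, 8.59, 9.46 and 10.25 in knockouts 1 to 5 and of 4.36, 5.38, 4.90, 4.94 and 4.81 in controls 1 to 5. Knockouts 2 to 5 lay far above all controls, and knockout 1 lay below all of them, so the groups overlapped. Relative to the control mean, knockout 2 was 80.3-fold higher, knockout 5 41.5-fold, knockout 4 23.98-fold and knockout 3 13.1-fold, and knockout 1 stood at 0.677 of it. In linear intensity the controls held 20.5 to 41.5, below the median of every array, and without detection calls these folds are approximate. Knockout arrays averaged 8.77 ± 2.67 (SD, n = 5) and control arrays 4.88 ± 0.36 (SD, n = 5). The difference of 3.89 (SE 0.97, 95% confidence interval 1.77 to 6.002) was the widest of all 22180 genes in size. It did not pass (limma adjusted p = 0.120), and the SD in knockout was 7.35 times that in control.

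Slc10a2, the gene for uptake from the lumen, was at 5.14, 9.16, 7.88, 9.03 and 10.35 in knockouts 1 to 5 and at 6.08, 7.97, 5.50, 5.70 and 5.19 in controls 1 to 5. Knockouts 2, 4 and 5 lay above every control, knockout 3 lay just below control 2, and knockout 1 lay below all controls. Control 2 was the highest control here, and the other controls reached 6.08 at most. The difference was 2.23 (SE 0.82, 95% confidence interval 0.45 to 4.00, limma adjusted p = 0.301), or 4.68-fold (1.36 to 16.1).

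Slc51a encodes 1 subunit of the exporter to the blood. Its values were 9.89, 10.70, 10.27, 10.11 and 10.81 in knockouts 1 to 5 and 9.76, 9.91, 9.48, 9.59 and 9.72 in controls 1 to 5. Knockouts 2 to 5 lay above every control and knockout 1 just below control 2. The range within knockout was 0.92, against 6.89 for Fabp6. The difference was 0.67 (SE 0.17, 95% confidence interval 0.30 to 1.03, limma adjusted p = 0.120), or 1.59-fold.

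Fgf15, the hormone that FXR induces, was at 5.09, 6.31, 6.75, 6.73 and 5.99 in knockouts 1 to 5 and at 4.74, 5.18, 5.10, 5.00 and 5.03 in controls 1 to 5. Knockouts 2 to 5 lay above every control, and knockout 1 lay among the controls. Its order among the knockouts was not that of the transporter genes: knockouts 3 and 4 were highest, whereas knockout 5 was highest for Slc10a2 and Slc51a and knockout 2 for Fabp6. The difference was 1.16 (SE 0.26, 95% confidence interval 0.60 to 1.73, limma adjusted p = 0.0867), or 2.24-fold. At an adjusted p under 0.1 Fgf15 would pass, with 1.18% of all genes. A second Fgf15 probe set averaged 5.21 ± 0.14 (SD, n = 5) over the knockouts against 5.10 ± 0.16 (SD, n = 5) over the controls. It differed by 0.11 (SE 0.10). The main probe set averaged 6.17 over the knockouts and 5.01 over the controls. It had the higher mean over all arrays only through the knockouts, since the second was higher over the controls. The Fgf15 difference and its p-value are therefore not free of that choice. The second probe set ran only from 4.88 to 5.33 over all arrays, below the array medians, and the main one was as dim in controls. In knockouts 3 and 4 the main probe set was at 6.75 and 6.73 and the second at 5.32 and 5.22. The Fgf15 difference thus rests on 1 of its 2 probe sets, and why they differed was not tested.

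**Figure D1:**
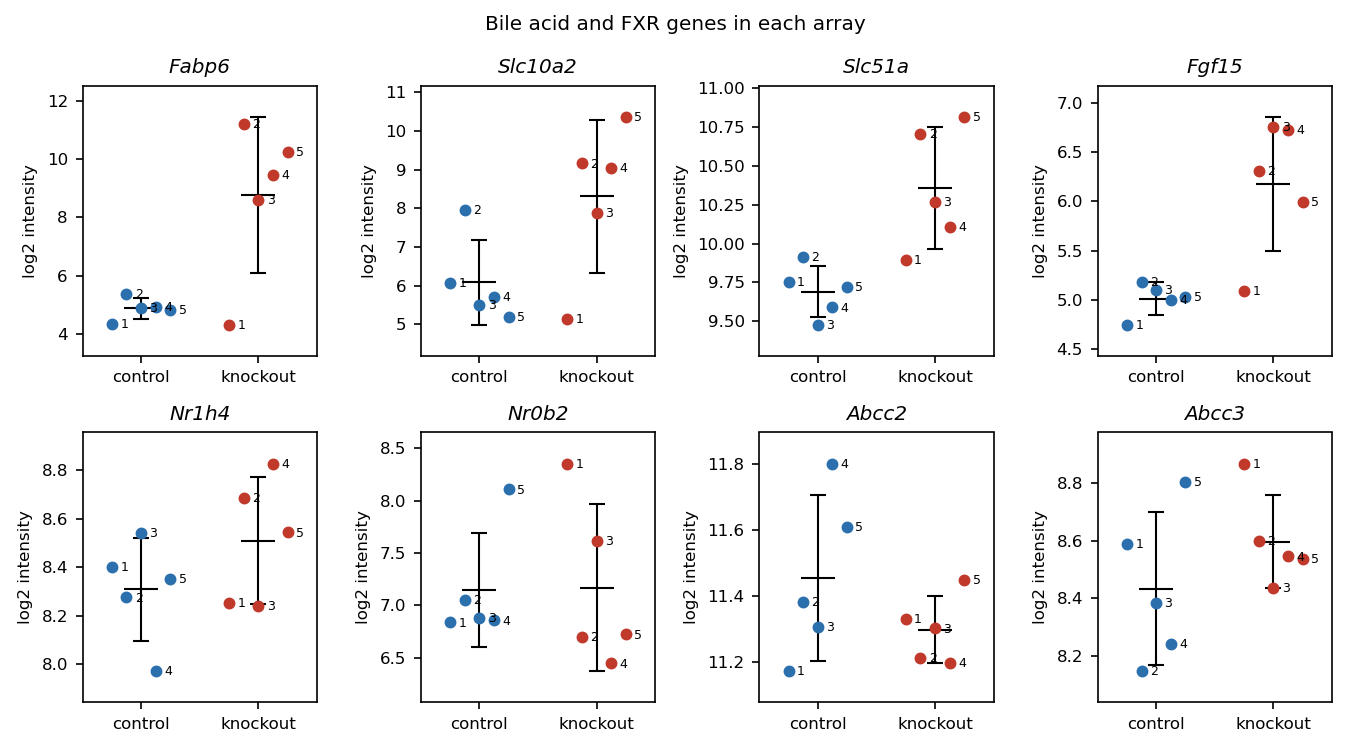
Log2 intensity of the 8 measured bile acid and FXR genes in each array, with control arrays in blue, knockout arrays in red and the replicate number beside each point. Bars give the mean and SD of 5 arrays. For Fabp6, Slc51a and Fgf15, knockouts 2 to 5 lie above every control and knockout 1 does not.

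Nr1h4, which encodes FXR itself, was at 8.25, 8.68, 8.24, 8.83 and 8.54 in knockouts 1 to 5 and at 8.40, 8.28, 8.54, 7.97 and 8.35 in controls 1 to 5. The groups overlapped, and knockouts 1 and 3 lay among the controls. The difference was 0.20 (SE 0.14, 95% confidence interval -0.10 to 0.50, limma adjusted p = 0.614).

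Nr0b2 encodes SHP, the repressor that FXR induces. It was at 8.35, 6.70, 7.61, 6.45 and 6.72 in knockouts 1 to 5 and at 6.84, 7.05, 6.88, 6.86 and 8.11 in controls 1 to 5. Knockout 1 and control 5 were the highest arrays, and knockouts 2, 4 and 5, which were high for Slc10a2 and Fabp6, lay below every control. The difference was 0.02 (SE 0.35, 95% confidence interval -0.75 to 0.79, limma adjusted p = 0.989). Its sign was negative in 7 of the 11 fits that left out arrays, and it was -0.28 (SE 0.29) without knockout 1.

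Abcc2 and Abcc3 encode efflux pumps for conjugated bile acids and other organic anions, on the luminal and the blood side of the cell. Abcc2 was at 11.33, 11.21, 11.30, 11.20 and 11.45 in knockouts 1 to 5 and at 11.17, 11.38, 11.30, 11.80 and 11.61 in controls 1 to 5. All its knockout arrays lay within the range of the controls, and the difference was -0.16 (SE 0.12, 95% confidence interval -0.41 to 0.10, limma adjusted p = 0.658). Abcc3 was at 8.87, 8.60, 8.44, 8.55 and 8.54 in knockouts 1 to 5 and at 8.59, 8.15, 8.38, 8.24 and 8.80 in controls 1 to 5. Its groups overlapped too, with knockout 1 and control 5 as the highest arrays, and the difference was 0.16 (SE 0.13, 95% confidence interval -0.12 to 0.44, limma adjusted p = 0.682).

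Leaving out knockout 1 changed the calls. In that fit 4 of 8 genes rose, where 1.21% of all genes were called and 0.509% were called higher. Fabp6 was 5.00 higher (SE 0.42, limma adjusted p = 9.49e-04), or 32.0-fold, and Fgf15 was 1.44 higher (SE 0.16, limma adjusted p = 0.00413), or 2.70-fold. Slc10a2 was 3.02 higher (SE 0.56, limma adjusted p = 0.0320) and Slc51a 0.78 higher (SE 0.15, limma adjusted p = 0.0359). In 3 of the 8 genes, Fabp6, Slc51a and Fgf15, knockouts 2 to 5 did not overlap the controls, which held for 6.09% of all genes in either direction and 2.87% with knockout higher. Nr1h4 (0.27, SE 0.14), Nr0b2, Abcc2 (-0.16, SE 0.13) and Abcc3 (0.10, SE 0.13) did not pass there either. With control 5 left out as well, 2 of 8 passed, where 0.839% of all genes did: Fabp6 (4.98, limma adjusted p = 0.00339) and Fgf15 (1.44, limma adjusted p = 0.00740). Nothing in the labels marks knockout 1 as different from the other knockouts, and it was left out with its values known.

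Markers of position along the small intestine also differed between arrays. A region index was taken for each array as the mean of 16 distal enterocyte markers minus the mean of 18 proximal ones, each gene centred on its own mean and none of them among the 9 genes. It was -0.79, 0.72, 0.43, 0.32 and 0.96 in knockouts 1 to 5 and -0.14, 0.32, -0.68, -0.25 and -0.88 in controls 1 to 5. Knockout 1 thus lay among the controls and control 2 among the other knockouts. Control 2 and knockout 4 had nearly the same index, 0.320 and 0.318. It was made up differently, with distal means of 0.34 and -0.05 and proximal means of 0.02 and -0.37. Arrays with like indices thus need not match in either marker set. Log2 intensities in control 2 and knockout 4 were 5.38 and 9.46 for Fabp6 and 5.18 and 6.73 for Fgf15. They were 7.97 and 9.03 for Slc10a2 and 9.91 and 10.11 for Slc51a. Knockout 1, at -0.79, lay between control 5, at -0.88, and control 3, at -0.68, and there the knockout was not higher for Fabp6, at 4.31 against 4.81 and 4.90. Slc10a2 was at 5.14 in knockout 1 against 5.19 and 5.50 in those controls, Fgf15 at 5.09 against 5.03 and 5.10, and Slc51a at 9.89 against 9.72 and 9.48.

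The marker lists, too, were chosen with earlier results of these data known. Among the proximal markers, 17 of 18 had lower values in knockout, where 11103 of all 22180 genes did. Of the 18, 1 fell, the cytochrome P450 gene Cyp2c66 (-2.22, SE 0.38, limma adjusted p = 0.0296), where 0.343% of all genes were called. The median difference of the 18 was -0.24. Lct, lactase, was at -0.72 (SE 0.15) and Apoc3, an apolipoprotein, at -0.70 (SE 0.19). Without knockout 1, 3 of the 18 fell (Cyp2c66, Lct and Adh6a), where 1.21% of all genes were called. In that fit 0 of the 16 distal markers were called. Summed linear intensity of the proximal markers was 68104 to 87249 in knockout and 81874 to 99452 in control. Among the distal markers 11 of 16 had higher values, where 11077 of all 22180 genes did. Of the 16, 0 were called, and the median was 0.22. They did not move as 1 group: Clec2h was at 0.35 (SE 0.13) and Prss30 at 0.55 (SE 0.25). Cubn, the cobalamin-intrinsic factor receptor, was at -0.84 (SE 0.19), with all knockouts below all controls. Such a lack of overlap, in either direction, held for 2.77% of all genes. Plb1, an intestinal phospholipase gene named after its values were seen, had the widest difference of the 16 (2.16, SE 1.28) and was at 3.38 without knockout 1. Their summed linear intensity was 35251 to 57934 in knockout and 34418 to 49485 in control. Markers of the large bowel, next beyond the ileum, summed to 3920 to 5365 in knockout and 3371 to 4161 in control over 8 markers, of which 0 were called and 6 lay below the median gene. Cyp2c66 has close relatives that its probes may not tell apart.

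With the region index as a covariate, the differences were 2.16 (SE 0.72) for Fabp6, 0.87 (SE 0.28) for Fgf15, 0.52 (SE 0.35) for Slc10a2 and 0.39 (SE 0.13) for Slc51a. For Slc10a2 the 95% confidence interval then ran from -0.24 to 1.29, and for Fabp6 from 0.59 to 3.74. None of the 8 genes passed (limma adjusted p of 0.353 to 0.819), where 0.117% of all genes did, and 4 had an unadjusted p under 0.05, where 9.57% of all genes did. Those 4 were Fabp6, Slc51a, Fgf15 and Abcc3, the last at 0.34 (SE 0.13). Nr0b2 was at 0.58 (SE 0.30, limma unadjusted p = 0.0802) in this fit, against 0.02 without the covariate. With Plb1 left out of the index, a choice made after its values were seen, the differences were 2.11 for Fabp6, 0.89 for Fgf15, 0.47 for Slc10a2 and 0.37 for Slc51a, and none of the 8 passed. The index itself differed by group, averaging 0.33 over the knockouts against -0.33 over the controls. Of its 18 proximal markers, 17 had lower values in knockout, and Cyp2c66 among them was called. This fit therefore cannot tell sampling position from an effect of the knockout on the markers. The part of sampling position in the differences was not tested.

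**Figure D2:**
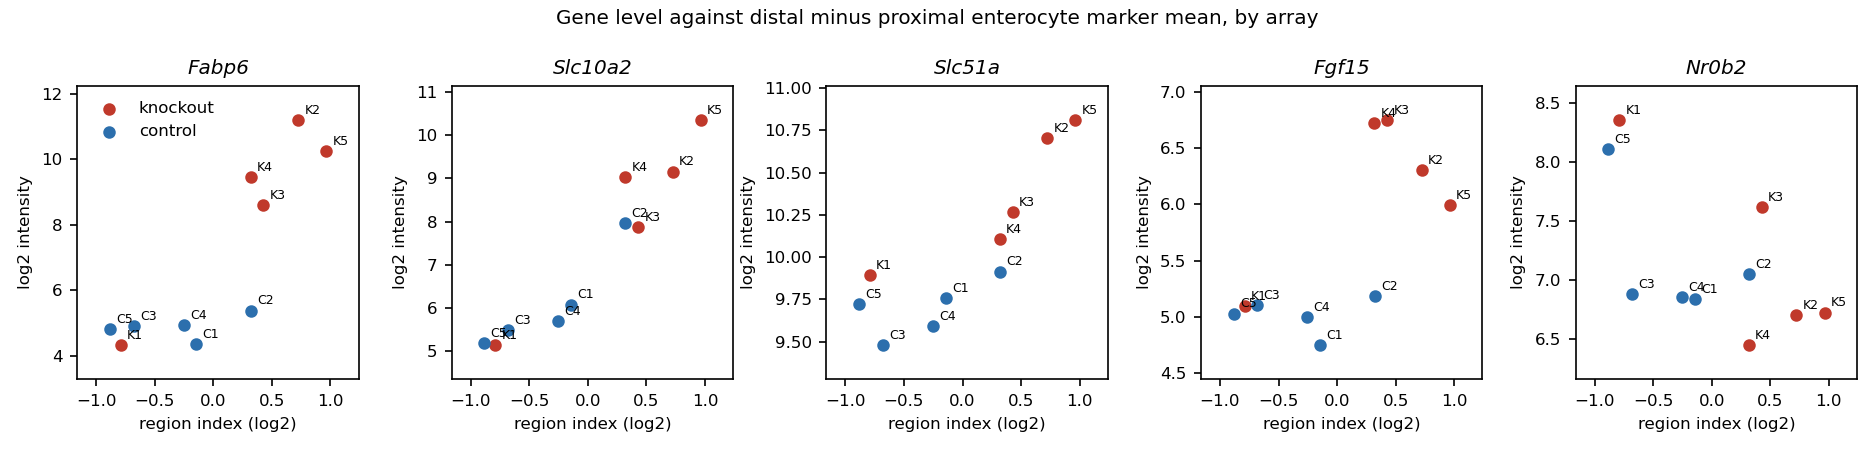
Log2 intensity of 5 genes against the region index of each array, the mean of distal minus the mean of proximal enterocyte markers on the log2 scale. K and C with a number name the knockout and control arrays. At an index of 0.32, knockout 4 lies above control 2 for Fabp6 and Fgf15, though their distal and proximal means each differ. At -0.79, knockout 1 lies below every control for Fabp6 and among them for Fgf15, and for Nr0b2 knockout 1 and control 5 lie highest.

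**Figure D3:**
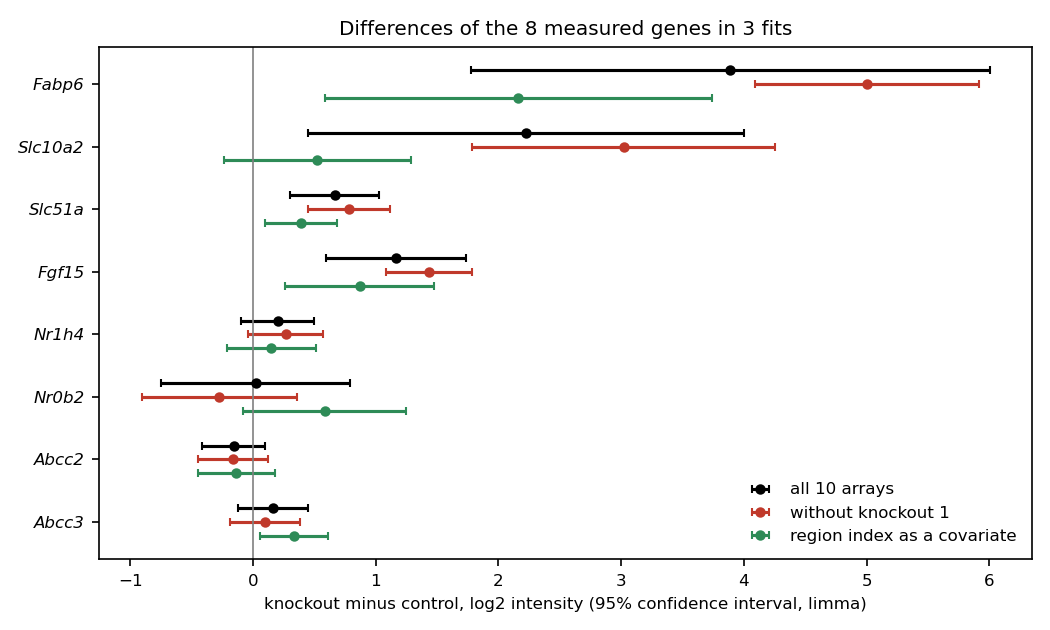
Difference of knockout minus control in log2 intensity with its 95% confidence interval for each of the 8 genes, from all 10 arrays, without knockout 1 and with the region index as a covariate. The interval for Fabp6 lies above 0 in all 3 fits, and that for Slc10a2 crosses 0 with the covariate.

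The remaining genes of the pathway were read from lists that were also chosen with earlier results of these data known. Other intestinal targets of FXR had higher values in 4 of 5 measured cases, where 11077 of all 22180 genes did. None of the 5 passed, where 0.343% of all genes did. Of the 5, 4 had a limma unadjusted p under 0.05, against 12.1% of all genes in either direction and 5.82% with higher values. Nos2, the inducible nitric oxide synthase gene, was at 5.93, 8.999, 6.31, 7.87 and 10.97 in knockouts 1 to 5 and at 5.50, 5.75, 5.32, 5.18 and 5.16 in controls 1 to 5. All knockouts lay above all controls, knockout 1 by the narrowest margin and knockout 5 by the widest. The groups did not overlap in 2.77% of all genes, in either direction. The Nos2 difference was 2.64 (SE 0.75, limma adjusted p = 0.170). Il18, an epithelial cytokine gene, was at 0.63 (SE 0.19) and Insig2, a regulator of sterol synthesis, at 0.46 (SE 0.15). Nos2 and Il18 also respond to inflammatory signals, and of 5 immune cell markers none was called, with summed linear intensities of 742 to 861 in knockout and 532 to 1263 in control. Those markers differed in direction, with Cd3e at -0.76 (SE 0.26) and Itgam at 0.33 (SE 0.14), and their part in the result was not tested. The list's median was 0.55, against -0.000354 over all genes.

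Partners and coregulators of FXR did not pass in any of 10 measured cases, where 0.343% of all genes did, and their median was -0.02. At that share, 0 calls in a short list does not show that its genes were unchanged. Ppargc1a, a coactivator gene, was at -0.31 (SE 0.15), Hnf4a, a nuclear receptor gene of the enterocyte, at 0.20 (SE 0.11), and Rxra, the partner of FXR, at -0.10 (SE 0.09). Among the other bile acid receptors, 0 of 5 passed, where 0.343% of all genes did. Nr1i2, the gene for the xenobiotic receptor PXR, was at -0.27 (SE 0.10), Nr1i3, the related receptor CAR, at -0.31 (SE 0.15), and Vdr, the vitamin D receptor, at 0.23 (SE 0.13). Of their targets, 1 of 5 measured genes fell, where 0.343% of all genes were called. This was S100g, the vitamin D-dependent calbindin gene (-1.79, SE 0.33, limma adjusted p = 0.0469), close to the limit of 0.05. Cyp3a11, a PXR target and drug-metabolising enzyme gene, was at -1.85 (SE 0.39, limma adjusted p = 0.0709), and it passed without knockout 1 (-2.18, limma adjusted p = 0.00976). Cyp3a11 too has close relatives that its probes may not tell apart.

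Other bile acid transporter genes did not pass in any of 11 cases, where 0.343% of all genes did, and their median was 0.000594. Slco1a4, an organic anion uptake transporter gene, was at 0.48 (SE 0.14), and the efflux pump genes Abcc1 and Abcg2 were at 0.30 (SE 0.11) and 0.28 (SE 0.11). In bile acid synthesis and conjugation 1 of 13 genes fell, where 0.343% of all genes were called. This was Hsd17b4 (-0.44, SE 0.08, limma adjusted p = 0.0469), also close to the limit of 0.05. It encodes a peroxisomal enzyme that shortens the bile acid side chain and also takes part in the oxidation of fatty acids. Its knockout arrays ran from 10.83 to 11.10 and its controls from 11.33 to 11.45, so they did not overlap, as in 2.77% of all genes. Cyp27a1, a sterol hydroxylase gene, was at -0.57 (SE 0.20) and Acox2, the peroxisomal oxidase of bile acid precursors, at -0.45 (SE 0.16). The list's median was -0.10, and 6 of its 13 genes, among them Cyp7a1 and Cyp8b1 of the liver, lay below the median gene.

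Receptor genes of the FGF15 pathway did not pass in any of 5 cases, where 0.343% of all genes did. Fgfr3 was at -0.54 (SE 0.15), Fgfr4, the main FGF15 receptor of the liver, at 0.11 (SE 0.11) and Fgfr2 at -0.15 (SE 0.15). Transcription factors of regional identity did not pass in any of 9, beside the same share of all genes. Gata6 was at -0.38 (SE 0.12) and Cdx2, a factor of intestinal identity, at 0.25 (SE 0.12). Onecut2, a factor known from the proximal gut, was at 8.33, 5.50, 5.86, 5.60 and 5.79 in knockouts 1 to 5 and at 7.14, 6.48, 7.66, 7.44 and 8.86 in controls 1 to 5, a difference of -1.30 (SE 0.54, limma adjusted p = 0.357). Knockouts 2 to 5 lay below every control and knockout 1 above all but control 5. With knockout 1 set aside, the groups did not overlap in 6.09% of all genes, in either direction. Without knockout 1 Onecut2 fell by 1.83 (limma adjusted p = 0.0360). Gata4, outside the rule for naming and given because of its known role, was at -0.16 (SE 0.10).

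**Figure D4:**
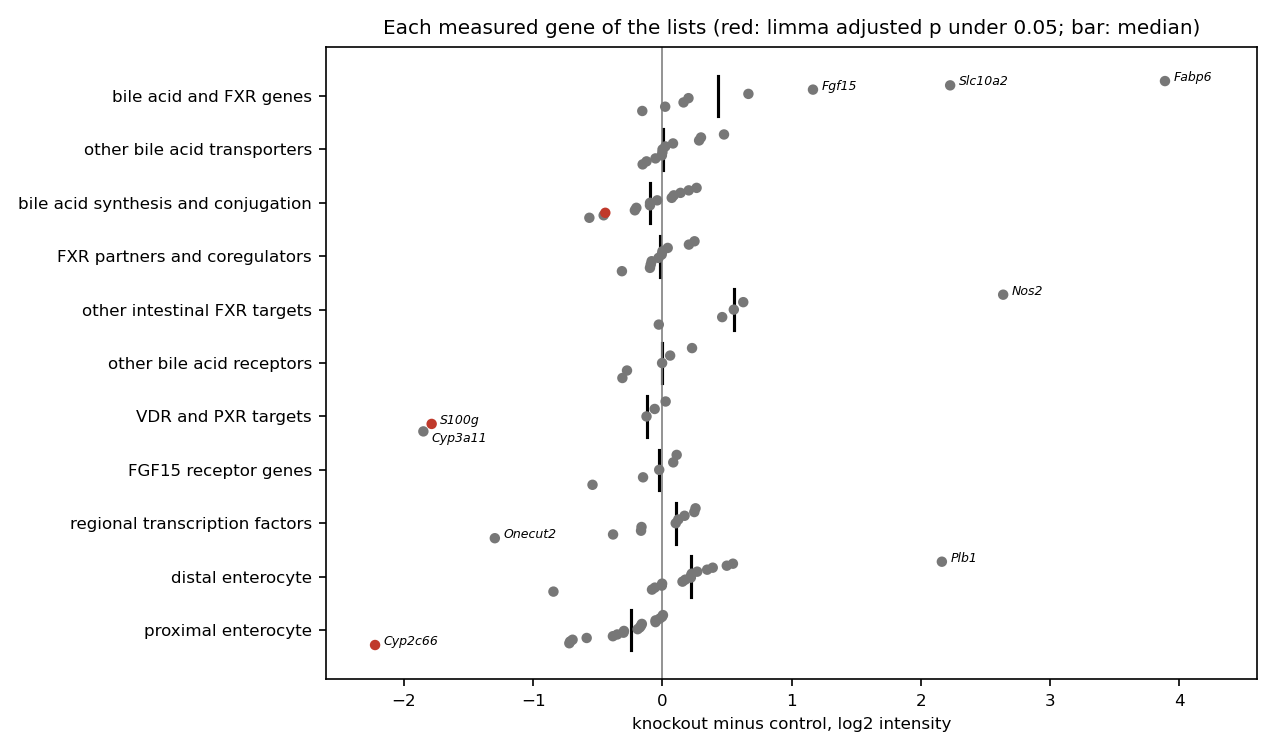
Difference of knockout minus control in log2 intensity for each measured gene of the bile acid and FXR set and of 10 further lists. Red points passed limma's test over all genes, black bars are list medians, and genes beyond 1 in either direction are named. Fabp6 stands at 3.89, and the red points are Hsd17b4, S100g and Cyp2c66.

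The genes most like Fabp6 across the 10 arrays were Tm7sf2 (Pearson r = 0.963), a sterol reductase gene, Urah (0.962), Plcd1 (0.960), a phospholipase C gene, Tmem222 (0.960) and Borcs5 (0.952), out of 9925 genes with a mean log2 intensity of at least 6. Knockouts 2 to 5 against the other 6 arrays set these values in large part. With the group means removed, r was 0.898 to 0.916. That step leaves knockout 1 apart from knockouts 2 to 5, for Fabp6 at 4.31 against 8.59 to 11.20. This gap weighs heavily in the latter values. For Plcd1, knockout 1 was at 6.67, knockouts 2 to 5 at 7.63 to 7.93 and controls at 6.61 to 7.12, so it had the same split in a narrower range. The genes most like Fgf15 were Med24 (r = 0.932), Dip2b (0.927), Yipf1 (0.926), Usp43 (0.924) and Mboat1 (0.924). Once group means were removed, r was 0.777 to 0.835, with the same limit from knockout 1. Mboat1, a lysophospholipid acyltransferase gene, rose (1.51, SE 0.26, limma adjusted p = 0.0296), where 0.343% of all genes were called. The other 9 of the 10 genes did not pass. Mboat1 was picked for likeness to Fgf15 over these same arrays, so its rise is not independent of the Fgf15 values. Its mean was 5.95 in controls and 7.46 in knockouts, so it met the limit of 6 through the knockouts.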

How the data were processed

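RNA from the jejunum was measured on 10 Affymetrix arrays. Per the submitters' processing notes, the authors used Affymetrix Expression Console 1.4.1.46 and RMA, and the deposited values are linear intensities, here taken to log2. The genome build is not given in the sources used here. RMA brings arrays to a shared distribution, which hides a shift common to most genes. Detection calls were not used, so dim genes were tested too, and precision is limited by the number of arrays.

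Probe sets were named from the platform annotation: 23521 of 41345 carried 1 symbol, and the one with the highest mean over 10 arrays stood for its gene (22180 genes). Groups came from the sample titles, which do not say that each array is a separate animal, so p-values cover only the spread seen among these samples, and that spread may be technical. limma 3.58.1 in R 4.3.3 (lmFit, eBayes, group only) was fitted to all genes with Benjamini-Hochberg adjustment, called under 0.05. It was tested on simulated data. The 9 genes, the lists and the marker sets were chosen with earlier results of these data known. All 9 genes were named, with up to 3 genes of smallest p and any called gene per list, and the 5 genes most like Fabp6 and Fgf15 by Pearson r. Alternatives covered scaling, dim genes, probe sets, eBayes settings, array weights, pseudocount, region, blocks, threshold and omitted arrays.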

Additional observations from a re-analysis of the deposited data

Results flagged for a closer look

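In groups of 5 arrays, 164 sets of values were checked for 1 array far from the rest, by its gap to the nearest array as a share of the range (limit 0.71), and 9 stood out, where chance gives about 8.2. Among the bile acid genes this held for Nr0b2, where control 5 was at 8.11 and the other controls at 6.84 to 7.05 (share 0.832). Knockout 1 stood apart for Onecut2, at 8.33 against 5.50 to 5.86 (0.870), for Plcd1, at 6.67 against 7.63 to 7.93 (0.763), and for Usp43, at 6.86 against 7.14 to 7.25 (0.711). Plcd1 and Usp43 were picked for likeness to Fabp6 and Fgf15, so they are no independent cases. It did so too for the mean of the hepatocyte markers, at 0.00854 against -0.07 to -0.05 (0.758). Control 5 stood apart for Itgam, at 6.18 against 6.78 to 6.94 (0.784), and for the mean of the immune markers, at -0.81 against 0.08 to 0.38 (0.746). Control 4 stood apart for Myh11, at 9.14 against 6.94 to 7.22 (0.869), and for the mean of the smooth muscle markers, at 1.36 against -0.43 to -0.06 (0.793).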

How the results depend on the processing

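The count of bile acid genes called was 0 under all alternatives but array weights (1, Fgf15), a threshold of 0.1 (1, Fgf15), omission of knockout 1 and control 5 together (2) and omission of single arrays, where it ran from 0 to 4. It was 4 without knockout 1 and 0 without any other single array. The count over all genes, 76, was 142 with array weights, 27 with the replicate block, 26 with the region index, 28 with that index without Plb1 (chosen after seeing the data), 186 without knockout 1 and control 5, 261 at a threshold of 0.1, and 11 to 268 with 1 array left out. Fabp6, Slc10a2, Slc51a, Fgf15, Nr1h4, Abcc2 and Abcc3 kept their direction under the 21 alternatives run for each. Nr0b2 was 0.58 with the region index and kept its direction under the alternatives that used all 10 arrays. It turned only in some fits that left out arrays. It was -0.0349 without knockout 1 and control 5 together and ran from -0.28 to 0.26 with 1 array left out. The negative values came without knockout 1 (-0.28), knockout 3 (-0.09) and controls 1 (-0.06), 2 (-0.00267), 3 (-0.05) and 4 (-0.05). Fgf15 was 0.64 (limma adjusted p = 0.132) with the mean of its 2 probe sets. Same-numbered arrays deviated together by correlations of -0.13 to 0.12. The labels give them only a shared number, and these correlations cannot show whether they were paired for single genes. The replicate block changed no call of the 8 genes. With it the SE was 0.72 for Fabp6, against 0.97 in the main fit, and 0.16 for Nr1h4, against 0.14. The cause was not tested where values moved. Low intensities, such as those of Fabp6 and Fgf15 in controls, lie below the array medians, which limits the precision of fold changes there.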

Other observations

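The probe set annotated to both Slc51b and Rasl12 cannot be assigned to either gene. Its log2 intensity was 10.89, 11.73, 11.30, 11.43 and 12.08 in knockouts 1 to 5 and 11.11, 10.99, 10.41, 10.65 and 10.89 in controls 1 to 5. Knockouts 2 to 5 lay above every control and knockout 1 among them, with a difference of 0.68 (SE 0.21, limma unadjusted p = 0.00756, adjusted p = 0.320) in a fit over all probe sets.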
